A study of Mus musculus with 12 samples.

Results

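The 10 genes described here encode the RUNX transcription factors and the other regulators that turn a growing chondrocyte into a hypertrophic one. They were chosen by symbol: Runx1, Runx2, Runx3, Cbfb, Mef2c, Mef2a, Hdac4, Dlx5, Foxa2 and Sp7. All 10 were found among the 49315 genes of the count table, and all 10 passed the filter on low counts, which left 16565 genes for testing. The rule itself uses symbols and no threshold on a measured value, but the genes were proposed with earlier results of these data known.

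RNA came from primary epiphyseal chondrocytes, the cartilage cells at the ends of long bones, taken from mice 5 days old, with 3 samples for each of 4 genotypes. Wild type (WT) mice were compared with mice that lack Phlpp1 (Phlpp1-/-, here Phlpp1 KO), Phlpp2 (Phlpp2-/-, Phlpp2 KO) or both genes (Phlpp1/2-/-, Phlpp1/2 KO). PHLPP1 and PHLPP2 are phosphatases that act on AKT and other kinases, and the study asked how Phlpp1 bears on the formation of bone from cartilage. Cells of all groups were released with collagenase, frozen, thawed and kept in culture overnight with 10% serum before RNA was taken. Every sample is labelled female. The strain is given as C57BL6, except for Phlpp2 KO 3 (C57BL7) and for Phlpp1/2 KO 1, 2 and 3 (C57BL8, C57BL9 and C57BL10). The labels name no promoter or Cre line, do not say whether a sample is 1 animal or a pool, and give no batch, so p-values measure only the spread between these samples, which may be technical.

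RUNX proteins bind DNA through their Runt domain as a complex with CBFB, which holds them on their site and protects them from breakdown. In the growth plate, RUNX2 and RUNX3 together are needed for chondrocytes to become hypertrophic, and RUNX1 is prominent earlier, in immature and resting cartilage. MEF2C switches on the hypertrophy genes and Runx2 itself, while HDAC4 holds MEF2C and RUNX2 silent until parathyroid hormone-related peptide signalling weakens. DLX5, FOXA2 and SP7 (osterix) then act with or after RUNX2 on collagen X, matrix breakdown and mineralisation.

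RUNX genes are known to be transcribed from a distal and a proximal promoter, and the consensus core bound by RUNX proteins is TGTGGT, which reads ACCACA on the other strand. The stretches shown here hold the RUNX cores found before the RefSeq starts, and the one of Runx2 lies inside an annotated exon of the gene. They are given because Runx2 and Runx3 were the RUNX genes with lower values in knockouts. Whether these cores bear on those values was not tested. Of the 10 genes, 8 matched an entry of the RefSeq promoter table (GRCm38.p6), with 14 entries in all. In the 250 bases before the start, searched on both strands, TGTGGT was found in 2 of the 14 entries, the distal ones of Runx2 and Runx3. Among all 32851 promoters of that length, 14% held it. Capitals mark the core.
Runx2 site: gtgaggtcacaaACCACAtgattctgtctc
Runx3 distal: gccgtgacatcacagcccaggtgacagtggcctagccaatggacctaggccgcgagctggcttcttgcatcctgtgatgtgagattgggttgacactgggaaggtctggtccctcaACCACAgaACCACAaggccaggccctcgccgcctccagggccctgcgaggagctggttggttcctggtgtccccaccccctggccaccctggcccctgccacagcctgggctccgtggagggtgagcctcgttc

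The Runx2 stretch lies at chr17:44814690-44814719 on the minus strand, with the core 80 bases before the RefSeq start, and in GENCODE vM21 it falls in an untranslated part of the first exon of 2 annotated Runx2 transcripts. The Runx3 stretch lies at chr4:135120395-135120644 on the plus strand, and its cores sit 134 and 126 bases before the start. The first 53 bases of it overlap an exon of Gm16225, an annotated neighbour. In the Runx3 stretch the cores are a close pair, separated by a dinucleotide, whereas Runx2 has 1. A homeodomain core, TAATTA, of the kind that DLX proteins bind, was found in 1 entry, the second of Mef2c, against 4.84% of all promoters. The MEF2 core TATTTATA was in none of the 14 entries and in 1.56% of all promoters. A match is a description of these letters and not evidence of binding, and nothing here measured binding.

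The libraries held 21706337 to 33115345 counts, and levels are given as CPM, a gene's counts relative to the library total after TMM scaling, where a single count weighs 0.0295 to 0.0453 CPM. Across genes, which are no replicates of one another, log2 CPM correlated between libraries at a Pearson r of 0.988 to 0.992 within a genotype and 0.984 to 0.992 between genotypes. Phlpp1 stood at 35.1 to 43.8 CPM in WT and at 7.71 to 9.46 CPM in the 6 libraries labelled as lacking it, with no overlap. Phlpp2 stood at 22.5 to 28.1 CPM in WT, 16.8 to 19.4 in Phlpp2 KO and 10.2 to 11.4 in Phlpp1/2 KO, again with no overlap, but the reads that remained were many. Which part of either gene was deleted is not given in the sources used here. Xist, the RNA of the silenced X chromosome, stood at 13.9 CPM in Phlpp1 KO 1 and 3.77 CPM in Phlpp1/2 KO 1, against 278 to 587 CPM elsewhere. In Phlpp1/2 KO 1 the Y-linked genes summed to 108 CPM, against at most 1.23 in the others, which goes against its female label. The chondrocyte identity of the cells was borne out by markers: 14 chondrocyte genes summed to 32160 to 59180 CPM per library, and Sox9 stood at 92.3 CPM per kb of exon in WT.

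In WT, the common partner Cbfb was the most abundant of the 10 genes per length, at 36.4 CPM per kb of exon (SD 0.405, n = 3), and none of the RUNX genes came near it. Mef2a followed at 7.15 CPM per kb (SD 0.221). The 3 RUNX genes were close to each other, with Runx3 at 6.68 (SD 0.255), Runx2 at 5.36 (SD 0.432) and Runx1 at 5.06 CPM per kb (SD 0.371). Foxa2 at 6.57 (SD 1.34) and Sp7 at 6.12 CPM per kb (SD 0.624) fell in the same range. Dlx5 at 3.16 (SD 1.07), Mef2c at 2.51 (SD 0.241) and Hdac4 at 1.87 CPM per kb (SD 0.153) were the least abundant. All of them were far below Col10a1, the collagen of hypertrophic chondrocytes, at 229 CPM per kb. Exons of all annotated transcripts were merged for the lengths, so a gene with long exons that are not used in these cells would read low on this scale.

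**Figure D1:**
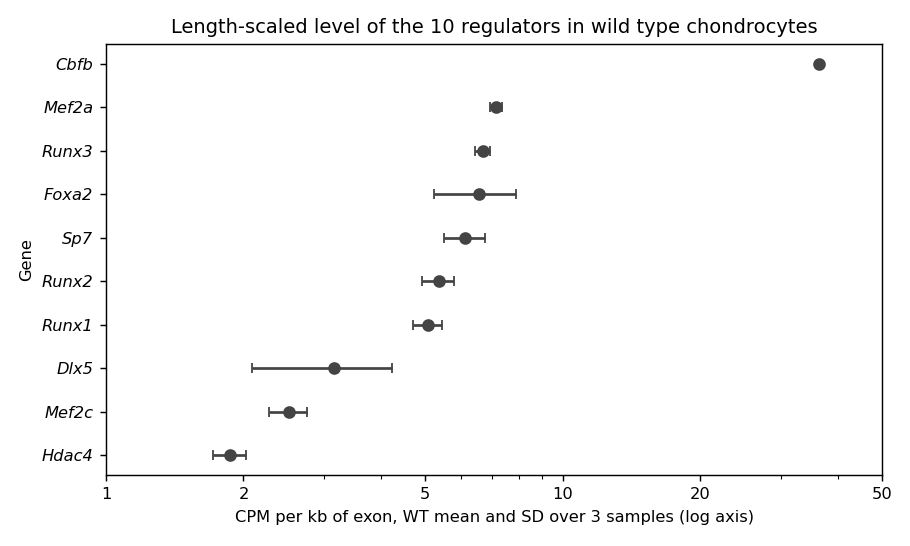
Length-scaled level of the 10 genes in WT chondrocytes, as CPM per kb of merged exon on a log axis; points are means and lines SD over 3 samples. Cbfb at 36.4 stands alone, and 6 genes crowd between 5.06 and 7.15.

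No gene of the 10 passed the test in any contrast. In edgeR's quasi-likelihood test, adjusted by Benjamini-Hochberg over 16565 genes at 0.05, 0 of 10 were called in Phlpp1 KO against WT, where 0.537% of all tested genes were called. The count was 0 of 10 as well in Phlpp2 KO (background 0.121%) and Phlpp1/2 KO (0.235%) against WT. The genotypes form a layout of 2 by 2, so each loss can also be tested over 6 libraries against 6. The counts were 0 of 10 for Phlpp1 loss (background 0.592%), for Phlpp2 loss (0.0906%) and for the interaction of both losses (0.0483%), the departure of Phlpp1/2 KO from the summed log2 effects of Phlpp1 KO and Phlpp2 KO. By an unadjusted p under 0.05, 2 of 10 were lower in Phlpp1 KO (background for lower genes 9.54%), 1 in Phlpp2 KO (5.29%), 2 in Phlpp1/2 KO (6.09%), 3 with Phlpp1 loss (8.36%) and 1 with Phlpp2 loss (3.5%), and none passed in the interaction (14.5% in either direction). The 3 comparisons with WT share the same WT libraries and are not independent of one another.

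In both knockouts that lack Phlpp1, most of the 10 genes had a log2 fold change below 0, many of them small. The median was -0.14 in Phlpp1 KO against WT, with 7 of 10 below 0, beside -0.01 over all tested genes. It was -0.17 in Phlpp1/2 KO, with 8 of 10 below 0, beside 0.00 over all genes. In Phlpp2 KO the median was 0.01 with 5 of 10 below 0, beside -0.02. Of all tested genes, 47.7% were above 0 in Phlpp1 KO, 46.1% in Phlpp2 KO and 49.6% in Phlpp1/2 KO. These medians and counts describe the list and carry no test.

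**Figure D2:**
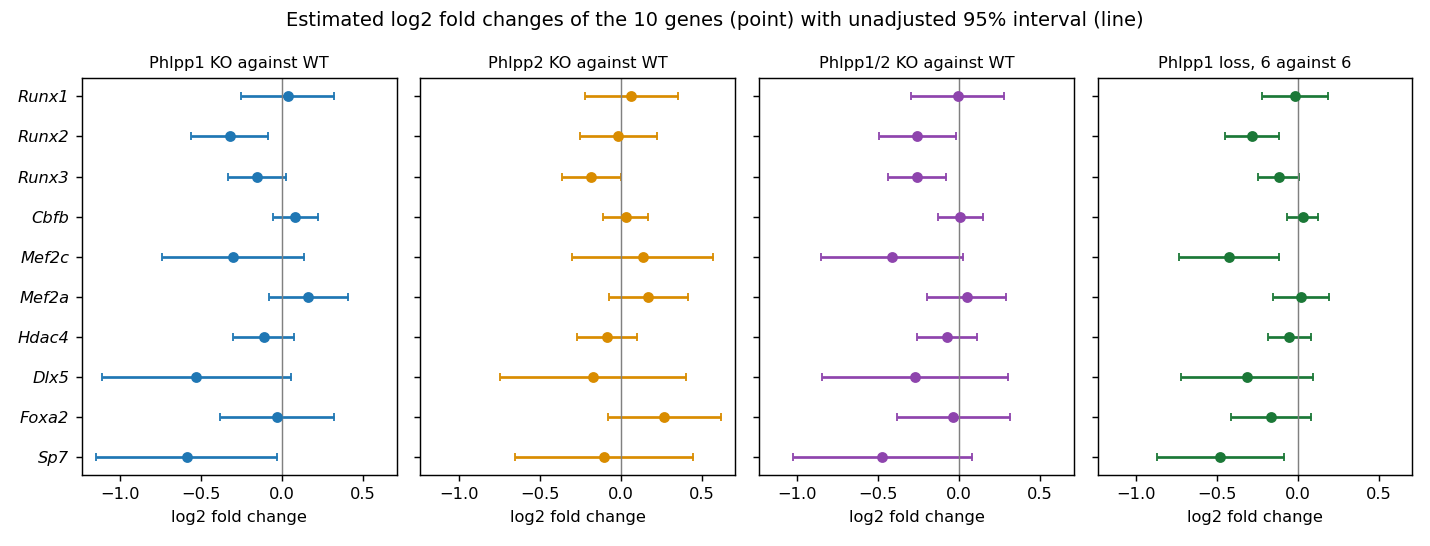
Estimated log2 fold changes of the 10 genes (points) with unadjusted 95% intervals (lines), for each knockout against WT and for Phlpp1 loss in 6 libraries against 6. Runx2 and Sp7 lie left of 0 in Phlpp1 KO with intervals that end below 0, Cbfb has the narrowest intervals, and no gene passed the adjusted test.

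Groups that do not overlap were common among all genes, so the separations in this paragraph are given beside the share of all genes. In Phlpp1 KO against WT, 3 of 10 genes were below WT in every library (Runx2, Runx3 and Sp7) and Mef2a was above, beside 13.3% of all tested genes lower and 14.9% higher. In Phlpp2 KO only Runx3 of the 10 was separated, beside 8.87% of genes lower. In Phlpp1/2 KO, Runx2, Runx3 and Mef2c were lower, beside 10.3%. None of the 10 was separated in 6 libraries against 6 for Phlpp1 loss (1.09% of all genes) or Phlpp2 loss (0.32%).

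Runx2, the master regulator of hypertrophy and bone formation, was lower in the libraries that lack Phlpp1. It stood at 43.9, 46.7 and 51.5 CPM in WT and at 38.5, 38.1 and 36.9 CPM in Phlpp1 KO. All 3 Phlpp1 KO libraries lay below all 3 WT libraries, and their spread was the smallest of the 4 genotypes (SD 0.842 CPM against 3.82 in WT). Phlpp2 KO gave 39.7, 46.8 and 54.2 CPM and overlapped WT. Phlpp1/2 KO gave 42.6, 42.1 and 34.2 CPM, all below WT, with Phlpp1/2 KO 3 the lowest Runx2 value of the 12 libraries. The log2 fold change against WT was -0.32 in Phlpp1 KO (SE 0.111, 95% interval -0.56 to -0.085, 0.799 times the WT level, edgeR adjusted p = 0.136). It was -0.02 in Phlpp2 KO (SE 0.110, interval -0.25 to 0.22, adjusted p = 0.964) and -0.26 in Phlpp1/2 KO (SE 0.110, interval -0.50 to -0.02, adjusted p = 0.408). Over 6 libraries against 6, Phlpp1 loss gave -0.28 (SE 0.078, interval -0.45 to -0.12, adjusted p = 0.135), and the interaction was 0.08 (SE 0.156, adjusted p = 0.863).

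Of the 31 alternatives for Runx2 in Phlpp1 KO against WT and with Phlpp1 loss, 4 called it. In the others the adjusted p went up to 0.317 in Phlpp1 KO (without WT replicate 3) and to 0.284 for Phlpp1 loss (without Phlpp1 KO replicate 2). DESeq2 gave -0.28 for Phlpp1 loss with an adjusted p of 0.0454, and edgeR with no filter on low counts gave -0.28 with 0.0494. Without Phlpp2 KO replicate 1, edgeR called Runx2 (-0.34, adjusted p = 0.0202) and also Mef2c (-0.52, adjusted p = 0.0322) for Phlpp1 loss. With the 6 libraries of Phlpp1 KO and WT fitted alone, Runx2 (-0.32, adjusted p = 0.0239) and Sp7 (-0.59, adjusted p = 0.0108) were called, in a fit that called 1163 of 15761 genes against 89 of 16565 in the fit of all 12 libraries. Runx2 stayed below 0 in all 13 alternatives for Phlpp1 KO, all 13 for Phlpp1/2 KO and all 18 for Phlpp1 loss. Without Phlpp1 KO 1 and Phlpp1/2 KO 1, the libraries of low Xist, it was at -0.32 in Phlpp1 KO (adjusted p = 0.264) and -0.30 in Phlpp1/2 KO (adjusted p = 0.521). In bulk RNA, fewer cells that express a gene and less of its RNA per cell cannot be told apart.

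The genes whose pattern over the 12 libraries lay closest to that of Runx2 were C1qtnf6, Mxd4, Apcdd1, Zer1 and Gatsl3. Likeness was the root mean square difference of log2 CPM after each gene's own mean was taken off, over 11939 genes with a mean of at least 1 CPM, and the median gene differed from Runx2 by 0.23. C1qtnf6, a secreted protein of the C1q and TNF related family, differed by 0.06, with means of 53.9 CPM in WT, 42.4 in Phlpp1 KO, 53.0 in Phlpp2 KO and 44.2 in Phlpp1/2 KO. Mxd4, a partner of MAX that opposes MYC, and Apcdd1, a membrane inhibitor of WNT signalling, each differed by 0.083. Zer1, which selects proteins for a cullin ubiquitin ligase, and Gatsl3, an arginine sensor of the mTORC1 pathway, each differed by 0.085. These genes share libraries and depth with Runx2, and the closeness is a description with no test.

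Runx3, which shares the work of hypertrophy with Runx2 in the growth plate, was the only one of the 10 genes with all 9 knockout libraries below all 3 WT libraries. The share of all tested genes with that layout was not counted, so it cannot be called particular to Runx3. WT stood at 33.9, 32.0 and 34.4 CPM and Phlpp1 KO at 31.5, 28.5 and 30.1. Phlpp2 KO stood at 28.3, 31.8 and 28.3 CPM and Phlpp1/2 KO at 29.7, 29.4 and 24.5. The gap was narrow: the lowest WT value was 31.96 CPM and the highest knockout value, in Phlpp2 KO 2, was 31.83. The log2 fold change was -0.16 in Phlpp1 KO (SE 0.083, adjusted p = 0.316), -0.18 in Phlpp2 KO (SE 0.083, adjusted p = 0.360) and -0.26 in Phlpp1/2 KO (SE 0.083, interval -0.44 to -0.08, 0.834 times the WT level, adjusted p = 0.294). Over 6 libraries against 6, it was -0.12 for Phlpp1 loss (SE 0.059, adjusted p = 0.390) and -0.14 for Phlpp2 loss (SE 0.059, adjusted p = 0.678). Runx3 is also a gene of T cells. The 8 lymphoid markers summed to 0.497 to 0.829 CPM in WT and 0.274 to 0.526 in Phlpp1 KO. They summed to 0.232 to 0.613 CPM in Phlpp2 KO and 0.398 to 0.561 in Phlpp1/2 KO. In WT the largest means were those of Cd79a (0.359 CPM) and Il7r (0.188 CPM). The T cell markers Cd3e and Cd3d averaged 0.0127 and 0.012 CPM in WT, and Cd3g was at 0 in all 12 libraries. The sum is therefore hardly a measure of T cells, and their part in the Runx3 values was not tested.

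Runx1 and the common partner Cbfb showed no difference of that kind. Runx1 stood at 65.5, 60.7 and 56.5 CPM in WT, 52.5, 66.6 and 68.0 in Phlpp1 KO, 59.4, 72.8 and 58.6 in Phlpp2 KO and 58.5, 51.8 and 71.1 in Phlpp1/2 KO. The 4 groups overlapped throughout, and the 3 log2 fold changes against WT ran from -0.01 to 0.06, with adjusted p of 0.868 to 0.990. The interval in Phlpp1 KO was -0.25 to 0.32, so that a change the size of that of Runx2 lies just outside it on the low side.

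Cbfb stood at 125, 127 and 128 CPM in WT and was the steadiest of the 10 genes, with a ratio of 1.2 between its highest and lowest library. Phlpp1 KO gave 146, 131 and 125 CPM, Phlpp2 KO 122, 133 and 133, and Phlpp1/2 KO 122, 127 and 133. All groups overlapped. The intervals against WT were -0.06 to 0.22 in Phlpp1 KO, -0.11 to 0.17 in Phlpp2 KO and -0.13 to 0.15 in Phlpp1/2 KO, which bound any change in the RNA of the shared subunit.

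**Figure D3:**
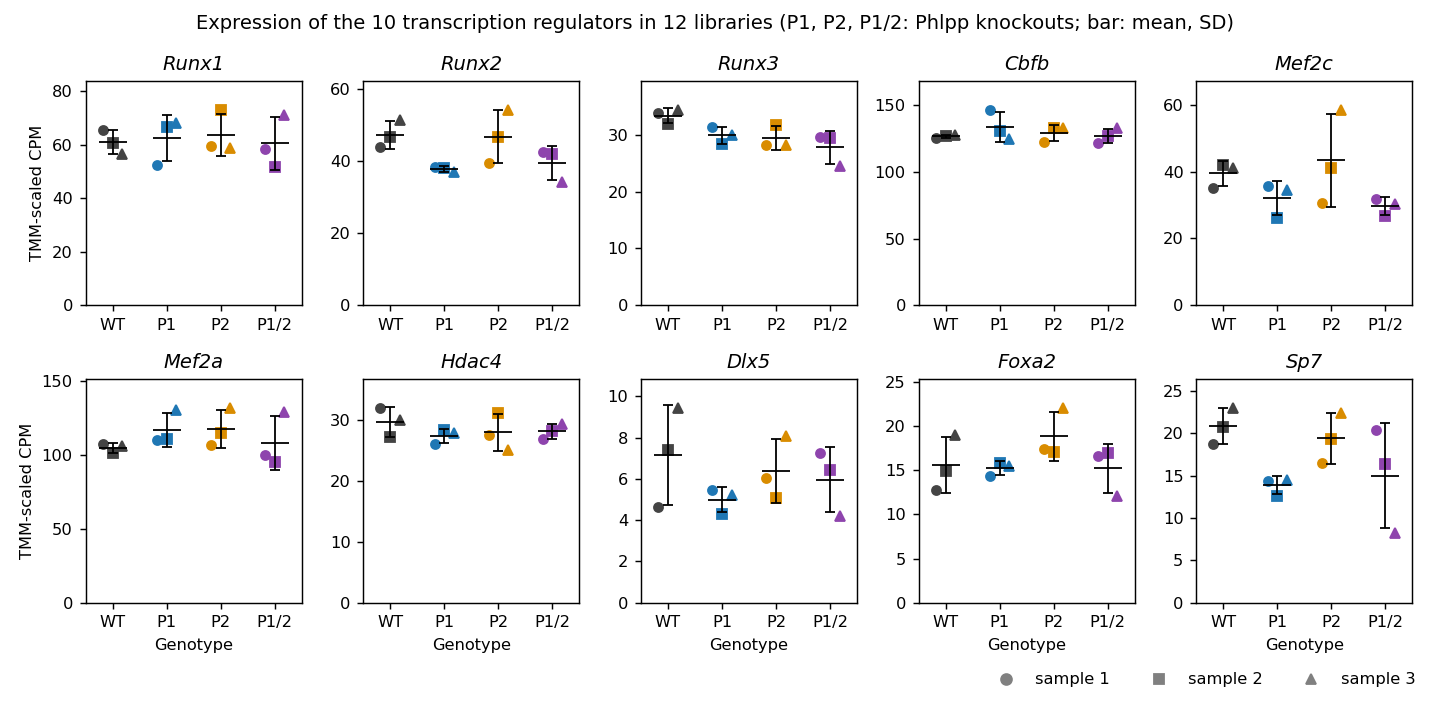
TMM-scaled CPM of the 10 genes in each of the 12 libraries (WT, and P1, P2 and P1/2 for the Phlpp1, Phlpp2 and Phlpp1/2 knockouts), with the mean and SD over 3 samples; marker shape gives the sample number. Runx2 in Phlpp1 KO sits at 36.9 to 38.5 CPM, below the 43.9 to 51.5 CPM of WT, and Sp7 in Phlpp1/2 KO is spread from 8.27 to 20.4 CPM.

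Mef2c, the MADS-box factor that drives the hypertrophic programme, had its lowest genotype mean in Phlpp1/2 KO (29.7 CPM, SD 2.65), although its lowest single library was Phlpp1 KO 2. It stood at 35.2, 42.2 and 41.2 CPM in WT, 35.7, 26.2 and 34.4 in Phlpp1 KO, 30.8, 41.1 and 58.5 in Phlpp2 KO and 31.9, 26.7 and 30.4 in Phlpp1/2 KO. Phlpp2 KO ran from below the WT range to the highest value of all 12 libraries, in Phlpp2 KO 3. The log2 fold change against WT was -0.41 in Phlpp1/2 KO (SE 0.200, interval -0.85 to 0.03, adjusted p = 0.480) and -0.30 in Phlpp1 KO (SE 0.200, adjusted p = 0.429). In Phlpp2 KO it was 0.14 (SE 0.198, adjusted p = 0.812), and it turned to -0.13 without Phlpp2 KO replicate 3. Phlpp1 loss over 6 against 6 gave -0.43 (SE 0.141, interval -0.73 to -0.12, adjusted p = 0.212). Mef2c is also a muscle gene: the 10 muscle markers summed to 16.02 to 79.2 CPM in WT, 8.65 to 38.4 in Phlpp1 KO, 4.98 to 12.5 in Phlpp2 KO and 11.3 to 22.4 in Phlpp1/2 KO. Phlpp2 KO 3 had the highest Mef2c and the lowest muscle sum of the 12 libraries, 4.98 CPM, whereas WT 2 had the highest Mef2c among WT samples and the highest muscle sum of all, 79.2 CPM. The part of muscle cells in the Mef2c values was not tested.

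Mef2a, a broadly expressed relative of Mef2c, stood at 107, 101 and 106 CPM in WT and at 110, 111 and 130 in Phlpp1 KO. Phlpp2 KO gave 107, 115 and 132 CPM and Phlpp1/2 KO 99.97, 95.5 and 129. The Phlpp1 KO values lay above WT, but only by a small gap, and the log2 fold change was 0.16 (SE 0.112, adjusted p = 0.450). It was 0.17 in Phlpp2 KO (adjusted p = 0.548) and 0.05 in Phlpp1/2 KO (adjusted p = 0.919). The interaction term for Mef2a was -0.29 (SE 0.159, adjusted p = 0.448), the smallest adjusted p of the 10 genes in that contrast. Mef2a was highest in replicate 3 of each knockout.

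Hdac4, the class II deacetylase that restrains MEF2C and RUNX2, stayed within a narrow range. It stood at 31.9, 27.1 and 29.9 CPM in WT, 26.1, 28.2 and 27.8 in Phlpp1 KO, 27.5, 31.1 and 25.0 in Phlpp2 KO and 26.9, 28.1 and 29.2 in Phlpp1/2 KO. Every knockout group overlapped WT. The log2 fold changes were -0.11, -0.09 and -0.08, with adjusted p of 0.493, 0.708 and 0.791. HDAC4 is controlled largely by phosphorylation and export from the nucleus, which RNA counts do not measure.

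Sp7, the zinc finger factor known as osterix that is needed for mineralising cells, had the log2 fold change farthest from 0 of the 10 genes in Phlpp1 KO. It stood at 18.7, 20.7 and 23.0 CPM in WT and at 14.4, 12.6 and 14.5 in Phlpp1 KO, with no overlap. Phlpp2 KO gave 16.4, 19.3 and 22.4 CPM and overlapped WT. Phlpp1/2 KO gave 20.4, 16.3 and 8.27 CPM, so that 1 library lay inside the WT range and 1 was the lowest of all 12. The log2 fold change in Phlpp1 KO was -0.59 (SE 0.253, interval -1.15 to -0.03, 1.51-fold lower, adjusted p = 0.222). In Phlpp1/2 KO it was -0.48 (SE 0.251, adjusted p = 0.514), -0.17 without Phlpp1/2 KO replicate 3 and -0.75 without Phlpp1 KO 1 and Phlpp1/2 KO 1. Phlpp1 loss gave -0.48 (SE 0.178, adjusted p = 0.248), and the interaction was 0.22 (SE 0.356, adjusted p = 0.836). Leaving out Phlpp1/2 KO replicate 3 also moved Runx2 in Phlpp1/2 KO from -0.26 to -0.15 and Runx3 from -0.26 to -0.16.

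Dlx5, a homeobox factor that acts with RUNX2 on hypertrophy and bone genes, was the least expressed by count. It stood at 4.62, 7.42 and 9.44 CPM in WT, 5.45, 4.30 and 5.21 in Phlpp1 KO, 6.04, 5.06 and 8.09 in Phlpp2 KO and 7.25, 6.42 and 4.22 in Phlpp1/2 KO. WT alone spanned most of the range of the 12 libraries, so every group overlapped it. The log2 fold change in Phlpp1 KO was -0.53 (SE 0.268, interval -1.11 to 0.05, adjusted p = 0.291). In Phlpp2 KO it was -0.17 (adjusted p = 0.818) and in Phlpp1/2 KO -0.27 (adjusted p = 0.748).

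Foxa2, a forkhead factor that activates hypertrophic genes in late chondrocytes, stood at 12.8, 14.9 and 19.0 CPM in WT and at 14.3, 15.8 and 15.5 in Phlpp1 KO. Phlpp2 KO gave 17.3, 17.0 and 22.0 CPM and Phlpp1/2 KO 16.7, 17.0 and 12.02. The Phlpp1 KO and Phlpp1/2 KO means, 15.2 CPM each, lay next to the 15.6 of WT. The log2 fold change was -0.03 in Phlpp1 KO (adjusted p = 0.930), 0.27 in Phlpp2 KO (SE 0.161, interval -0.08 to 0.62, adjusted p = 0.496) and -0.04 in Phlpp1/2 KO (adjusted p = 0.961). The interval of Foxa2 in Phlpp1 KO was -0.39 to 0.32, and all groups overlapped WT.

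Dlx5, Sp7 and Mef2c varied most between samples of 1 genotype. The biological coefficient of variation fitted by edgeR was 0.219 for Dlx5, 0.212 for Sp7, 0.169 for Mef2c and 0.137 for Foxa2, beside a median of 0.098 over all tested genes. It was 0.115 for Runx1, 0.102 for Mef2a, 0.098 for Runx2, 0.076 for Runx3, 0.078 for Hdac4 and 0.067 for Cbfb. Between the highest and the lowest library, Sp7 differed 2.78-fold, Dlx5 2.24-fold and Mef2c 2.23-fold, against 1.59-fold for Runx2.

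Several of these genes ranked the libraries of a genotype alike, a pattern chosen after the values were seen. Among the WT samples, WT 3 was the highest and WT 1 the lowest for Runx2, Dlx5, Foxa2 and Sp7. Among the Phlpp2 KO samples, Phlpp2 KO 3 was the highest for the same 4 genes, and it was the highest for 7 of the 10. In Phlpp1/2 KO, the third sample was the lowest for Runx2, Runx3, Dlx5, Foxa2 and Sp7 and the highest for 4 of the other genes. Of the 17 tested hypertrophy and mineralisation genes, 9 had the same highest and lowest WT sample, Alpl, Ihh, Panx3 and Phospho1 among them, and 3 had them the other way round (Spp1, Phex and Tnfsf11). Phlpp2 KO 3 was the highest of its genotype for 11 of the 17. Phlpp1/2 KO 3 was the lowest for 11 and the highest for 5. The bone marker sum moved in part with them: 685, 743 and 1046 CPM in WT, 1180, 603 and 982 in Phlpp2 KO and 733, 753 and 517 in Phlpp1/2 KO, with 692, 682 and 712 in Phlpp1 KO. That list of 10 genes is carried by collagen I, and its markers of mature osteoblasts and osteocytes (Bglap, Bglap2, Dmp1, Mepe, Sost and Ifitm5) did not pass the filter in any contrast. At most 1 of the 10 was at 0 in a library, as Mepe was in 7 of 12. Chondrocyte markers, too, were lowest in Phlpp1/2 KO 3, at 32160 CPM. The part of these cell sources in the values of Runx2 and Sp7 was not tested.

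**Figure D4:**
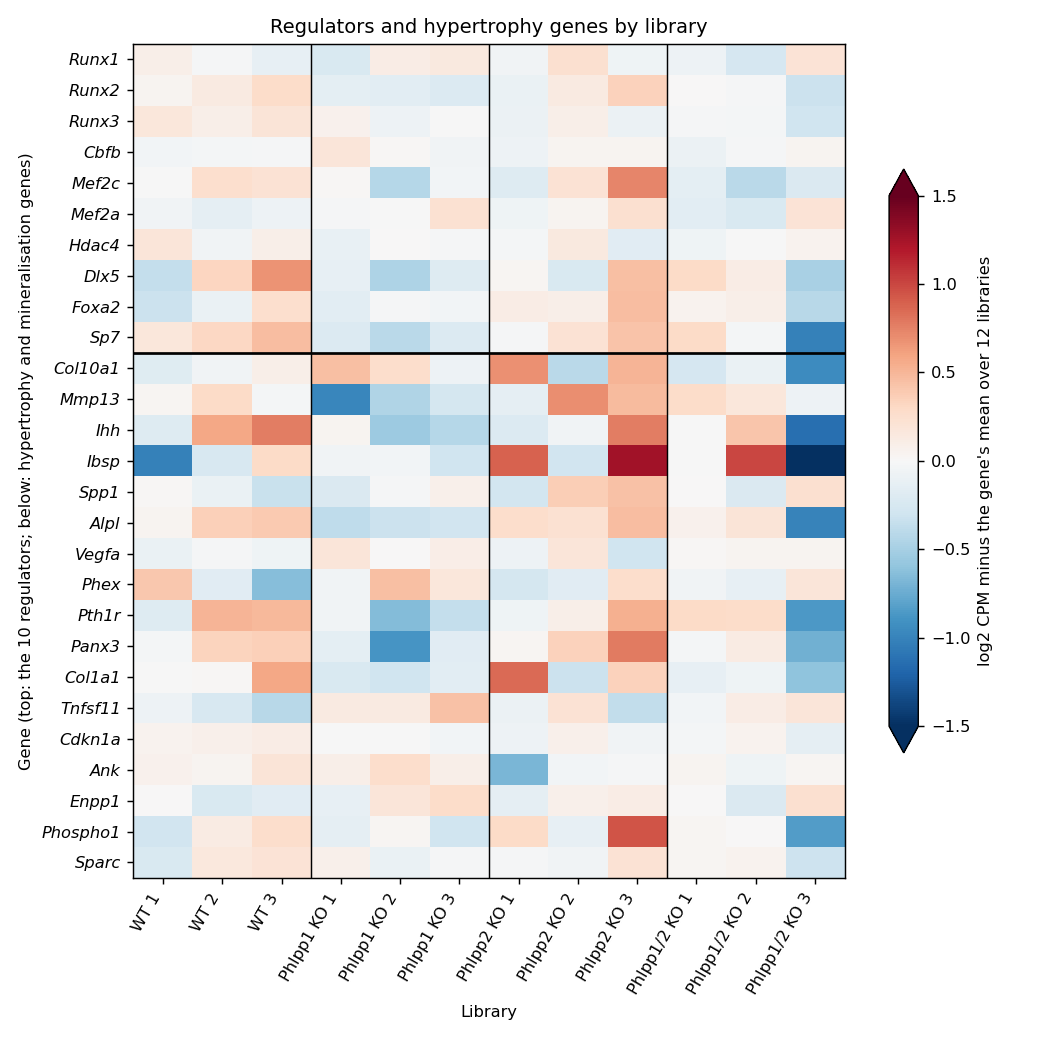
Log2 CPM minus each gene's mean over the 12 libraries (colour) for the 10 regulators (above the line) and 17 hypertrophy and mineralisation genes (below), with libraries in columns by genotype. WT 3 and Phlpp2 KO 3 are red and Phlpp1/2 KO 3 is blue for Runx2, Dlx5, Foxa2 and Sp7 and for Alpl, Ihh, Panx3 and Phospho1, while Spp1, Phex and Tnfsf11 run the other way in WT and Phlpp1/2 KO, so part of the variation runs within genotypes.

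Genes whose products bind or modify RUNX and MEF2 proteins were examined as a list of 42, of which 41 were in the table and 38 were tested. None was called in any of the 6 contrasts. In Phlpp1 KO, 25 of 38 were below WT and 13 above, with a median of -0.05 beside -0.01 over all tested genes. The lean was not particular to Phlpp1 KO. In Phlpp2 KO, 29 were below WT and 9 above (median -0.08 beside -0.02). In Phlpp1/2 KO, 25 were below WT and 13 above (median -0.07 beside -0.001). Of all tested genes, 47.7% were above WT in Phlpp1 KO, 46.1% in Phlpp2 KO and 49.6% in Phlpp1/2 KO. By an unadjusted p under 0.05, 4 were lower and 2 higher in Phlpp1 KO, beside 9.54% and 10.8% of all tested genes. The smallest adjusted p belonged to Hdac5, a class II deacetylase like Hdac4, with 45.4, 50.8 and 51.5 CPM in WT and 41.3, 36.3 and 39.1 in Phlpp1 KO. Its groups did not overlap, and the log2 fold change was -0.34 (SE 0.088, adjusted p = 0.0912). Hdac5 in Phlpp2 KO, at 38.4 to 44.6 CPM, also lay below WT without overlap. Of all tested genes, 13.3% were lower without overlap in Phlpp1 KO and 8.87% in Phlpp2 KO. Phlpp1/2 KO stood back near WT, at 49.2, 47.7 and 40.8 CPM, and the interaction for Hdac5 was 0.45 (SE 0.125, adjusted p = 0.151).

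Other genes of that list followed in order of adjusted p. Tle2, a Groucho corepressor that RUNX proteins recruit, was at -0.61 on the log2 scale in Phlpp1 KO (SE 0.192, adjusted p = 0.119), with 1.31 to 1.59 CPM in WT and 0.783 to 1.05 CPM in Phlpp1 KO. Smurf2 and Wwp1, ubiquitin ligases of the family that marks RUNX2 for breakdown, were at 0.30 (SE 0.109, adjusted p = 0.151) and 0.29 (SE 0.114, adjusted p = 0.181). Wwp1 stood at 41.4 to 44.4 CPM in WT, 50.1 to 57.3 in Phlpp1 KO and 48.6 to 57.7 in Phlpp2 KO. Phlpp1/2 KO gave 38.6, 39.0 and 53.3 CPM, so that Wwp1 was above WT in both single knockouts and on both sides of it in the double. Of all tested genes, 14.9% were higher without overlap in Phlpp1 KO, and that share is not given for Phlpp2 KO. For Wwp1 the separations are therefore a description. The interaction for Wwp1 was -0.57 (SE 0.160, adjusted p = 0.152). With Phlpp1 loss, Twist1, which blocks RUNX2 through its Twist box, was at 0.18 (SE 0.066, adjusted p = 0.223).

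Genes of hypertrophy and mineralisation formed a list of 21, of which 17 were tested and none was called in any contrast. Whether each of them is driven by RUNX2, MEF2C or SP7 in these cells was not tested. With Phlpp1 loss, 12 of the 17 were below 0, with a median of -0.22 beside 0.00 over all genes. That contrast sets Phlpp1 KO and Phlpp1/2 KO against WT and Phlpp2 KO. Against WT alone, 9 were lower and 8 higher in Phlpp1 KO (median -0.07 beside -0.01 over all genes). In Phlpp2 KO, 5 were lower and 12 higher (median 0.15 beside -0.02). In Phlpp1/2 KO, 10 were lower and 7 higher (median -0.12 beside -0.001). Of all tested genes, 50.9% were above 0 with Phlpp1 loss. Against WT, 47.7% were higher in Phlpp1 KO, 46.1% in Phlpp2 KO and 49.6% in Phlpp1/2 KO. Alpl, the phosphatase that frees phosphate for mineral, stood at 13.2, 16.4 and 16.9 CPM in WT and at 9.86, 10.3 and 10.5 in Phlpp1 KO. Phlpp2 KO gave 15.4, 15.1 and 17.6 CPM and Phlpp1/2 KO 13.5, 14.6 and 6.41. Alpl thus repeated the layout of Sp7: no overlap of Phlpp1 KO with WT, and 1 very low library in Phlpp1/2 KO. Its log2 fold change was -0.61 in Phlpp1 KO (SE 0.236, adjusted p = 0.180) and -0.54 with Phlpp1 loss (SE 0.165, adjusted p = 0.180).

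Panx3, a channel of prehypertrophic cells, was at -0.59 with Phlpp1 loss (SE 0.186, adjusted p = 0.193). Mmp13, the collagenase that opens hypertrophic matrix, stood at 170 to 211 CPM in WT and 87.9 to 144 in Phlpp1 KO, and its fold change was -0.64 on the log2 scale (SE 0.220, adjusted p = 0.147). In Phlpp1/2 KO, however, Mmp13 stood at 164 to 210 CPM, close to WT. Tnfsf11 (RANKL), the signal for osteoclasts, ran the other way, at 5.28 to 6.70 CPM in WT and 7.75 to 9.60 in Phlpp1 KO (log2 fold change 0.49, SE 0.154, adjusted p = 0.121).

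Col10a1, a direct target of RUNX2, had its highest and lowest genotype means in Phlpp2 KO and Phlpp1/2 KO. It stood at 651 to 788 CPM in WT, 706 to 1014 in Phlpp1 KO, 559 to 1194 in Phlpp2 KO and 387 to 694 in Phlpp1/2 KO. Its log2 fold change was 0.28 in Phlpp1 KO (SE 0.278, adjusted p = 0.617), where that of Runx2 was -0.32, and its interaction was -1.003 (SE 0.393, adjusted p = 0.262). The groups overlapped in every comparison with WT.

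In mm10, Runx1 (ENSMUSG00000022952) lies at chr16:92601466-92826149, Runx2 (ENSMUSG00000039153) at chr17:44495987-44814797, Runx3 (ENSMUSG00000070691) at chr4:135120652-135177990 and Cbfb (ENSMUSG00000031885) at chr8:105170674-105217989. Mef2c (ENSMUSG00000005583) lies at chr13:83504034-83667080, Mef2a (ENSMUSG00000030557) at chr7:67231163-67372858 and Hdac4 (ENSMUSG00000026313) at chr1:91928779-92195699. Dlx5 (ENSMUSG00000029755) lies at chr6:6877805-6882085, Foxa2 (ENSMUSG00000037025) at chr2:148042877-148046969 and Sp7 (ENSMUSG00000060284) at chr15:102356606-102367182. Runx3, Cbfb and Mef2c are on the plus strand and the others on the minus strand. Exons of 4 of the genes overlap a gene on the opposite strand, and since the strand setting of the counting is not given, reads there cannot be told apart. Runx2 shares 519 exon bases with the antisense Runx2os1, which had 482 counts over the 12 libraries beside 14638 for Runx2. Mef2a shares 302 bases with Lysmd4 (3054 counts beside 38407), Runx1 shares 106 with Gm26626 (59 beside 21219) and Hdac4 shares 3536 with Gm26720 (3 beside 9677).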

How the data were processed

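The authors deposited 1 table of raw counts per gene for 12 libraries. Per the submitters' processing notes, reads went through bcl2fastq 2.17, STAR 2.5.2b and featureCounts of Subread 1.5.2 on mm10. The labels' protocols name the NEBNext Ultra II RNA kit, while strand setting, annotation release and the handling of multi-mapping reads were not stated.

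All 49315 genes were kept, including 174 without a symbol (0.00419% of counts). Genes passing filterByExpr (16565) entered 1 edgeR 4.0.16 model in R 4.3.3 with TMM factors, a mean per genotype and robust quasi-likelihood tests (8 residual degrees of freedom, common biological coefficient of variation 0.105). Adjusted p is Benjamini-Hochberg over all tested genes. The SE of a log2 fold change comes from its F statistic, and intervals are 95% and unadjusted. Low totals limit precision for Dlx5 most. The fit was also run on simulated counts, drawn for each gene separately from the fitted dispersions, and the outcome is not given here. Those counts held no variation shared between genes, so the run does not vouch for the calls in these libraries. Alternatives were DESeq2 1.42.0, limma-voom (limma 3.58.1), RLE factors, no filter, a replicate block, 6 libraries alone, and libraries left out.

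The members and lists were chosen with earlier results of these data known. All 10 members were named. From each list, the rule took the 2 to 4 genes of lowest adjusted p in a contrast, above a mean of 1 CPM. Different contrasts could thus add different genes of a list. For Runx2 it took the 5 most similar genes. Ihh, Phospho1, Spp1, Phex and the pattern of libraries were named after their values were seen. Genome positions and exon lengths are from GENCODE vM21 and promoters from RefSeq.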

Additional observations from a re-analysis of the deposited data

How the results depend on the processing

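Of 93 counts of called members over all contrasts and alternatives, 89 stayed at 0. Phlpp1 loss gave 1 with DESeq2 and 1 with no filter (Runx2 both times), and 0 to 2 when each library was left out (2 without Phlpp2 KO replicate 1). Phlpp1 KO against WT gave 2 with the 6 compared libraries alone. The cause was not tested.

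Small fold changes turned sign. Without both libraries of low Xist, Foxa2 in Phlpp1 KO was 0.03 and Runx1 in Phlpp1/2 KO was 0.03; with 6 libraries alone, Runx1 in Phlpp1/2 KO was 0.01. With each library left out in turn, Runx1 ran from -0.02 to 0.14 in Phlpp1 KO, -0.03 to 0.14 in Phlpp2 KO and -0.13 to 0.09 in Phlpp1/2 KO. Foxa2 ran from -0.13 to 0.13 in Phlpp1 KO and -0.14 to 0.13 in Phlpp1/2 KO. In Phlpp2 KO, Runx2 ran from -0.13 to 0.09, Mef2c from -0.13 to 0.33 and Dlx5 from -0.38 to 0.07. In Phlpp1/2 KO, Cbfb ran from -0.01 to 0.04 and Mef2a from -0.09 to 0.13. The tally of member values covered each knockout against WT for all members. It also held Runx2, Runx3, Mef2c and Sp7 for Phlpp1 loss, Runx3 for Phlpp2 loss and Mef2a for the interaction. Of its values that did not turn sign, 473 kept direction and side of the threshold and 6 passed it. Values outside it were not tallied, and some crossed 0, as Sp7 did with Phlpp2 loss (-0.14 to 0.16).

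Counts over all genes moved far more. For Phlpp1 KO, Phlpp2 KO, Phlpp1/2 KO, Phlpp1 loss, Phlpp2 loss and the interaction they were 89, 20, 39, 98, 15 and 8. DESeq2 gave 988, 317, 160, 382, 57 and 640, and no filter gave 461, 110, 102, 274, 40 and 183. The 6 libraries alone gave 1163 for Phlpp1 KO, and limma-voom 13 for Phlpp2 KO. Without both libraries of low Xist, 18 were left for Phlpp1 KO, 28 for Phlpp1 loss and 4 for the interaction. With each library left out, 16 to 57 were called for Phlpp1 KO, 9 to 22 for Phlpp2 KO, 18 to 34 for Phlpp1/2 KO and 10 to 20 for Phlpp2 loss. Phlpp1 loss gave 38 to 568 (568 without Phlpp2 KO replicate 1, otherwise at most 92). The interaction gave 5 to 1196, with 1196 without Phlpp1/2 KO replicate 3 and 71 without Phlpp2 KO replicate 2.

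The replicate block left all 10 members uncalled (Runx2 in Phlpp1 KO -0.32, adjusted p = 0.161) and gave 245, 84, 29, 51, 12 and 308 genes. The labels do not tie the numbers together. Same-numbered samples of different genotypes had correlations of deviations from -0.138 to 0.276 over 18 pairs. Differently numbered samples of different genotypes had -0.261 to 0.185, so the ranges overlapped but the same-numbered one lay higher at both ends. Of the 12 libraries, 5 were closest to their own number. Whether the numbers mark a shared preparation was not tested.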
